A study of Danio rerio with 15 samples.

Results

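The immediate early, bZIP and Klf genes described here are 75 of the 8793 genes measured on the arrays. The rule reads symbols and no level, though it was set with earlier results of these data known: a gene belongs if its symbol begins with jun, fos, egr, atf, ier, dusp, gadd45, cebp, klf, btg, maf, nfil3, ddit, socs, nfkbi or sgk, with a digit after egr, atf, ier and btg. A gene was represented by its brightest probe set, the one with the highest mean over all arrays, and 62 members had 1 probe set and 13 had more, 93 in all. The name rule also took in genes that only share letters with these families. Among them are maf1a and maf1b, which encode repressors of RNA polymerase III, the chromatin protein gene atf7ip and the mitochondrial protein gene gadd45gip1. Others are the ER protein gene ier3ip1 and cebpz, whose product binds CCAAT boxes without a bZIP domain. The gene dusp11, counted with the Dusp genes, encodes an RNA phosphatase.

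RNA was measured on 15 Affymetrix arrays of cells sorted by fluorescence from trunks of zebrafish embryos aged 27 hours. V1 cells, also called CiA, are inhibitory interneurons of the ventral spinal cord and came from Tg(pax2a:GFP) embryos after the pronephros region had been cut away (n = 6). All spinal neurons came from Tg(elavl3:EGFP) embryos (n = 5), and trunk cells were sorted with no transgenic line named (n = 4). Each of these is a biological replicate by the series' design text. No group was mutant or drug treated: all embryos developed at 28.5 °C for the first 10 hours and at 32 °C from then on, and all tissue was dissociated with papain before the sort. Both reporters mark whatever cells express pax2a or elavl3, and V1 cells and neurons are themselves part of the larger groups. Values are RMA levels on the log2 scale, and the number of arrays limits the precision. No detection call was used here. Whether levels under the median of all values, 5.52, exceed background is unknown, and a linear fold is given only where both group means reach it.

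Immediate early genes are transcribed within minutes of a growth factor, calcium or stress signal, from factors already present in the cell. Jun, Fos, Atf, C/EBP and Maf proteins pair through a leucine zipper and bind DNA through the basic region beside it, whereas Egr and Klf proteins bind GC-rich DNA through zinc fingers. Many of the other members are brakes induced by the same signals: Dusp phosphatases act on MAP kinases, Socs proteins on JAK and STAT signalling, and IkB proteins, encoded by nfkbi genes, on NF-kappaB. Some members also have lasting roles in cell types, such as klf1 in red cells and klf2 genes in vessel lining.

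The 3 V1 markers, en1b, pax2a and otpb, were all higher in V1 than in both other groups. In V1 and in all neurons, 9 of 9 neuronal genes were higher than in trunk. Since pax2a and elavl3, one of the 9, are the genes of the sort reporters, their levels are no independent check of identity. The lists were also chosen with earlier results known. Between V1 and all neurons, 3 of the 9 neuronal genes were lower in V1 and none higher. These were snap25b (-1.47), gap43 (-0.74) and stmn2a (-0.59). Other cell types were also measured. Red cell markers averaged 7.83 to 9.35 in V1, 4.60 to 4.91 in all neurons and 8.04 to 8.95 in trunk, and 6 of 6 were higher in V1 than in all neurons. Neural crest and pigment markers were higher in V1 than in all neurons and than in trunk in 5 of 5 cases. Pronephros markers averaged 6.78 to 7.48 in V1, 4.47 to 5.78 in all neurons and 5.78 to 6.06 in trunk, although that region had been cut away for V1, and 5 of 7 were higher in V1 than in all neurons and 3 of 7 higher than in trunk. Of the 7 pronephros genes, 3 had every group mean under 5.52. Whether these genes, pax8 among them, are also expressed in other sorted cells was not tested. Skin markers were higher in V1 than in all neurons in 4 of 9 cases. Notochord markers averaged 4.67 to 6.10 in V1 and 7.11 to 8.05 in all neurons, lower in V1 in 6 of 7 cases. The part of these cell types in the results below was not tested. Muscle markers averaged 11.40 to 11.70 in trunk and 7.15 to 8.10 in V1, and in all neurons they read 9.83, 10.05 and 9.79 on arrays 1 to 3 and 8.03 and 8.24 on arrays 4 and 5. The control probe set AFFX-Dr-U43284-1_s_at, left out of the tests, stood at 8.02 and 8.16 on trunk arrays 1 and 2 and at 5.63 and 5.71 on trunk arrays 3 and 4, against 10.16 to 10.76 in all neurons and 4.98 to 5.59 in V1. In these bulk samples, fewer cells of a type and less RNA per cell cannot be told apart.

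The cells sorted as V1 differed from those sorted as all spinal neurons in a mixed pattern. Here and below, V1 names that sorted sample, in which markers of other cell types were also measured. Of the 75 genes, 19 were higher in V1, 8 were lower and 48 were not called by limma's moderated test at a Benjamini-Hochberg adjusted p under 0.05 over all 15502 probe sets. That is 36% of members called, beside 24.2% of all genes. Higher calls made up 25.3% of members beside 15.2% of all genes, and lower calls 10.7% beside 9.02%. The median difference was 0.05 over members and 0.01 over all genes. In 15 members the V1 and all-neuron arrays did not overlap, a state that held for 14.7% of all genes. The largest higher differences were in C/EBP, Gadd45 and Klf genes, and the largest lower ones in Egr genes and dusp2. Among the genes called higher, gadd45aa, klf1, klf2a and maff had every group mean under 5.52.

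Against trunk cells, V1 had 12 members higher, 17 lower and 46 not called, 38.7% called beside 43.9% of all genes. Higher calls were 16% of members beside 23.3% of all genes, and lower calls 22.7% beside 20.6%. Arrays did not overlap in 13 members, beside 29.6% of all genes. All spinal neurons had 10 members higher than trunk, 22 lower and 43 not called, 42.7% beside 46.3%, and 28 members did not overlap, beside 41.3% of all genes. Higher calls were 13.3% of members there, beside 20.8% of all genes, and lower calls 29.3% beside 25.4%. The member median was -0.04 for V1 against trunk and -0.22 for all neurons against trunk, beside -0.03 and -0.06 over all genes. The 3 comparisons share arrays, so their counts are not independent. Altogether 25 members were called in none of them.

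The split of calls depended on the scale. RMA makes the arrays' overall distributions alike. When the means of 68 ribosomal protein genes were instead set equal, the median of all probe sets moved to -0.57 for V1 against all neurons. The member median moved with it, to -0.51, and 5 members were higher and 46 lower, in place of 19 and 8. Shares of all genes called were not computed on this scale, so these counts are no result about the members. Only cebpa, cebpd, gadd45aa, gadd45bb and klf1 kept a higher call there. For all neurons against trunk the median of all probe sets moved to 0.44 and the member median to 0.25. There 28 members were higher and 9 lower, in place of 10 and 22. The lower calls lost were those of atf4a, cebpz, gadd45aa, gadd45bb, gadd45ga, ier3ip1, jun, klf2b, klf3, nfil3-6, nfkbiaa, nfkbiz and socs3a. For V1 against trunk the median of all probe sets moved to -0.12 and the member median to -0.13, with 6 members higher and 18 lower. The higher calls of dusp4, maf1a, maf1b, maff, nfkbib and socs1a were lost. Every direction below is relative to the RMA scale. The V1 lower count was 5 without all-neuron array 3. The count of 17 lower than trunk was 11 without trunk array 1, 10 without trunk array 2 and 8 with only trunk arrays 3 and 4. That last run had fewer trunk arrays, so its count is not on a par with 17. Its member median was 0.03, beside 0.01 over all probe sets. With only trunk arrays 1 and 2 the member median was -0.13, beside -0.05.

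**Figure D1:**
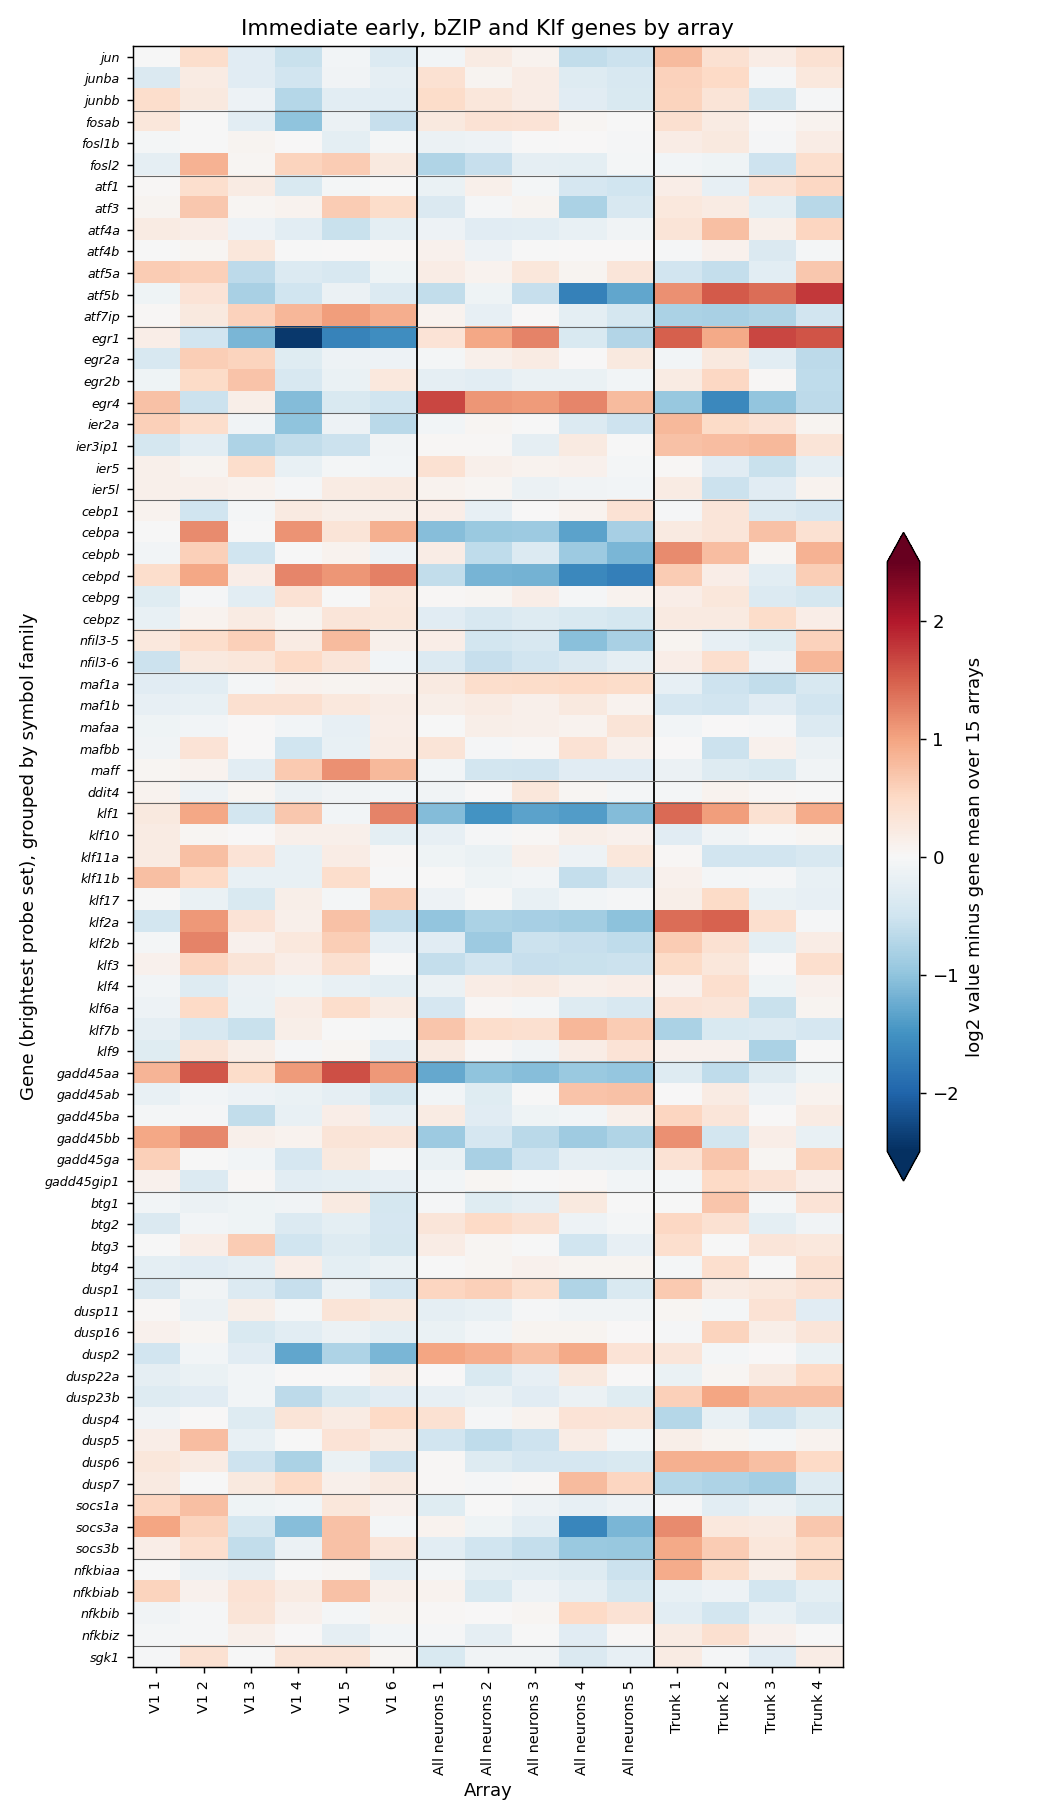
Level of the 75 genes (rows, grouped by symbol family) on each of the 15 arrays (columns), as log2 value minus the gene's mean over all arrays; colour runs from blue (low) to red (high). The gadd45aa row is red across all 6 V1 arrays and egr4 across the 5 all-neuron arrays, while egr1 and atf5b are red across the 4 trunk arrays. Above their row means as well are egr1 on all-neuron arrays 1 to 3 and V1 array 1, egr4 on V1 arrays 1 and 3, and atf5b on V1 array 2.

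Of the Jun and Fos genes, whose products form AP-1, jun itself was lower in V1 than in trunk. Its lowest, median and highest V1 levels were 9.83, 10.21 and 10.83. All-neuron arrays read 10.31, 10.59, 10.47, 9.76 and 9.86, and trunk arrays 11.19, 10.77, 10.58 and 10.77. The groups overlapped between V1 and both others, and all-neuron arrays 1 to 3 stood above arrays 4 and 5, as they did for the muscle markers. The part of muscle in this was not tested. The difference was -0.58 (SE 0.20, adjusted p = 0.0292) for V1 against trunk and -0.63 (SE 0.21, adjusted p = 0.0216) for all neurons against trunk, and 0.05 (adjusted p = 0.885) between V1 and all neurons. The first call was lost without V1 array 3, 4 or 6 or trunk array 1 or 2 (differences -0.46 to -0.59, adjusted p 0.0502 to 0.103). The second was lost without all-neuron array 4 or 5 or trunk array 1 (-0.51 to -0.54, adjusted p 0.0566 to 0.0788). A dimmer jun probe set was called in neither comparison with trunk. It gave -0.49 (adjusted p = 0.0593) for V1 and -0.44 (adjusted p = 0.106) for all neurons.

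The paralog junba was also lower in V1 than in trunk, by -0.53 (SE 0.17, adjusted p = 0.0199), a call lost without trunk array 1 or 2 (-0.45 to -0.48, adjusted p 0.0661 to 0.0674). The remaining Jun gene, junbb, was called nowhere, with differences of -0.17, -0.22 and -0.05. Of the Fos genes, fosl2 was higher in V1 than in all neurons, by 0.72 (SE 0.20, adjusted p = 0.0168). A second fosl2 probe set gave 0.92 (adjusted p = 0.00468), with no overlap between those groups, and the remaining one missed the threshold (0.63, adjusted p = 0.225). The gene fosl1b read 3.07 to 3.55 on all 15 arrays and was not called.

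The probe sets of fosab, the zebrafish c-Fos gene, did not give the same answer. By the brightest, V1 levels ran from 10.51 through a median of 11.29 to 11.79, all-neuron levels were 11.76, 11.87, 11.86, 11.55 and 11.50, and trunk levels 11.90, 11.71, 11.52 and 11.59. The V1 group reached lower but overlapped both others, and its differences, -0.49 (adjusted p = 0.0599) and -0.46 (adjusted p = 0.0631), were not called. The other 3 probe sets were all lower in V1 than in all neurons, by -0.73 (SE 0.22, adjusted p = 0.0239), -1.36 (SE 0.26, adjusted p = 0.00139) and -1.02 (SE 0.25, adjusted p = 0.00848). They were lower than trunk as well, by -0.72, -1.13 and -0.73. In the dimmer pair, no V1 array reached any all-neuron array. None of the 4 was called between all neurons and trunk. The fosab gene therefore counts as not called in the totals above, which read a gene through its brightest probe set.

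**Figure D2:**
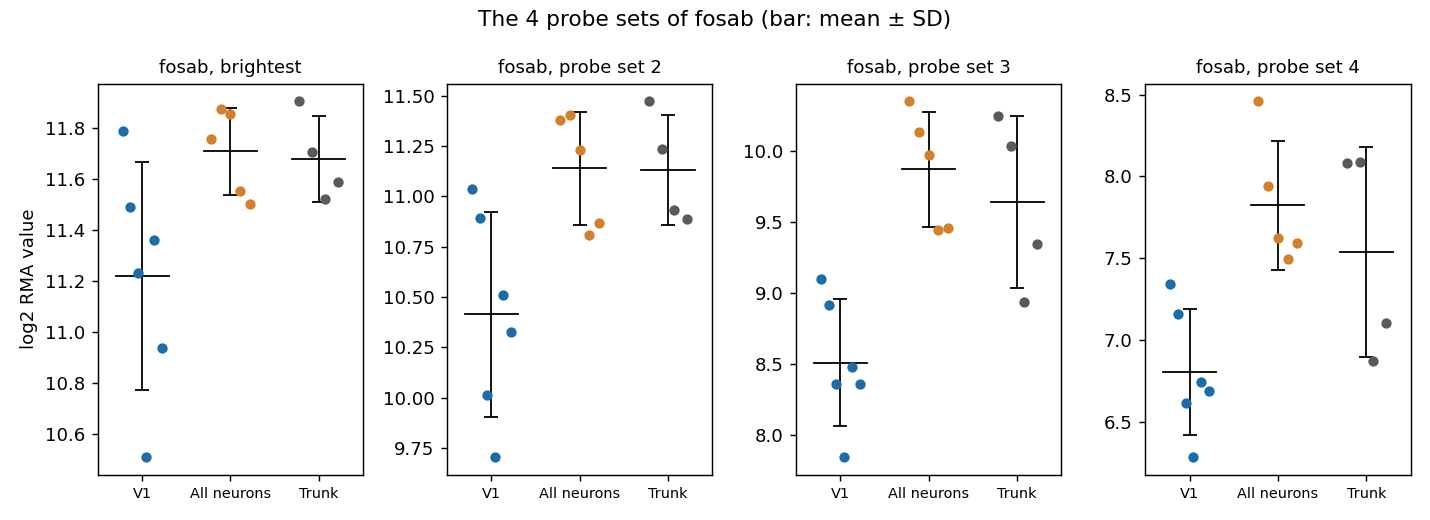
log2 RMA level of the 4 fosab probe sets, from the brightest to the dimmest, on each array (points), with group mean ± SD (bars); each panel has its own axis. V1 means lie below both other groups in all 4 panels, with differences from all neurons of -0.49, -0.73, -1.36 and -1.02.

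Egr genes encode zinc finger factors, of which egr1 is the classical responder to growth factors and activity. In V1, egr1 levels ran from 3.10 through a median of 4.16 to 5.68. All-neuron arrays read 5.85, 6.48, 6.75, 5.13 and 4.77, and trunk arrays 7.004, 6.46, 7.19 and 7.08. Trunk lay above every V1 array, whereas all-neuron arrays 4 and 5 fell within the V1 range. V1 was lower than trunk by -2.60 (SE 0.45, adjusted p = 0.000238) and lower than all neurons by -1.47 (SE 0.42, adjusted p = 0.0198). The second call was lost without all-neuron array 2 or 3 (-1.23 to -1.30, adjusted p 0.0538 to 0.0585). All neurons differed from trunk by -1.14 (adjusted p = 0.0631). A dimmer egr1 probe set, with every group mean under 5.52, gave -0.36 (adjusted p = 0.0162) against trunk and -0.09 (adjusted p = 0.614) against all neurons.

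The egr4 gene ran the other way between the neuron groups and trunk. V1 levels were 6.78, 7.42 and 8.59 at the lowest, median and highest, all-neuron levels 9.53, 8.96, 8.92, 9.08 and 8.65, and trunk levels 6.92, 6.26, 6.87 and 7.22. Every all-neuron array exceeded every V1 and trunk array, while V1 and trunk overlapped. Mean levels were 7.59 ± 0.63 in V1, 9.03 ± 0.32 in all neurons and 6.82 ± 0.40 in trunk (SD). V1 was 2.72-fold lower than all neurons (-1.44, SE 0.27, adjusted p = 0.00103), and all neurons were 4.64-fold higher than trunk (2.21, SE 0.29, adjusted p = 1.65e-05). V1 was also higher than trunk (0.77, adjusted p = 0.0402), a call lost without V1 array 1, 3 or 5 or trunk array 1, 2 or 3 (0.57 to 0.81, adjusted p 0.0543 to 0.157), and with cyclic loess scaling (0.57, adjusted p = 0.117). The hindbrain patterning genes egr2a and egr2b were called in no comparison, with group means from 4.72 to 5.28.

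Of 7 genes with an atf symbol, 3 were called in each comparison with trunk (42.9%, beside 43.9% and 46.3% of all genes) and 2 between V1 and all neurons (28.6%, beside 24.2%). Atf4 and Atf5 are bZIP factors of the amino acid and unfolded protein stress response. The atf5b gene had V1 levels of 4.09, 4.65 and 5.24 at the lowest, median and highest, all-neuron levels of 4.28, 4.78, 4.32, 3.21 and 3.60, and trunk levels of 6.04, 6.44, 6.30 and 6.66. No V1 or all-neuron array reached a trunk array. It was lower than trunk by -1.72 (SE 0.27, adjusted p = 8.86e-05) in V1 and by -2.32 (SE 0.28, adjusted p = 5.67e-06) in all neurons. The V1 and all-neuron groups overlapped (0.60, adjusted p = 0.104). Its relative atf4a was lower in both, by -0.57 (adjusted p = 0.00465) and -0.62 (adjusted p = 0.00293), while atf1, atf4b and atf5a were not called.

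The stress-induced repressor gene atf3 was higher in V1 than in all neurons, with V1 levels of 10.82, 11.03 and 11.44 and all-neuron levels of 10.40, 10.73, 10.83, 9.97 and 10.35. Trunk arrays read 11.02, 10.97, 10.52 and 10.07. The lowest V1 array overlapped the highest all-neuron array. The difference was 0.64 (SE 0.20, adjusted p = 0.0285) and was lost when V1 array 2, 5 or 6 was omitted, or all-neuron array 1, 4 or 5 (0.51 to 0.62, adjusted p 0.0529 to 0.0839), and with cyclic loess scaling (0.46, adjusted p = 0.111). The gene atf7ip was higher in V1 than in all neurons (0.76, SE 0.17, adjusted p = 0.00343) and than in trunk (1.31, SE 0.18, adjusted p = 2.42e-05). V1 arrays ran from 8.83 through 9.49 to 9.83, all-neuron arrays read 8.88, 8.58, 8.80, 8.54 and 8.35, and trunk arrays 7.99, 7.98, 8.05 and 8.32. V1 lay above every trunk array and overlapped all neurons. Its other 3 probe sets gave -0.10, -0.04 and -0.11 for V1 against all neurons. Against trunk they gave -0.06, 0.01 and 0.10 in V1 and 0.04, 0.06 and 0.21 in all neurons. None of these was called, so the atf7ip differences in all 3 comparisons rest on 1 probe set. All neurons were higher than trunk (0.54, adjusted p = 0.0254), a call lost without all-neuron array 1 or 3 or trunk array 1, 2 or 3 (0.48 to 0.53, adjusted p 0.0543 to 0.0652), and with cyclic loess scaling (0.37, adjusted p = 0.139).

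Of 6 genes with a cebp symbol, cebpa, cebpd and cebpz were higher in V1 than in all neurons and none was lower, beside 15.2% higher and 9.02% lower over all genes. C/EBP proteins are bZIP factors of acute phase, myeloid and fat cell programmes in mammals, and cebpz is not of that class. The largest difference was in cebpd, a gene of inflammatory and stress responses. Its V1 levels ran from 7.61 through 8.48 to 8.70, all-neuron levels were 6.82, 6.28, 6.26, 5.83 and 5.74, and trunk levels 8.07, 7.61, 7.17 and 8.05. Every V1 array lay above every all-neuron array, and V1 overlapped trunk. V1 exceeded all neurons 4.34-fold, by 2.12 (SE 0.24, adjusted p = 1.17e-05), and all neurons were below trunk by -1.54 (SE 0.26, adjusted p = 0.000189). V1 against trunk gave 0.58 (adjusted p = 0.0839). A second cebpd probe set, near the bottom of the scale, gave 0.03 between V1 and all neurons.

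The myeloid and fat cell factor gene cebpa followed the same order. V1 arrays read from 5.52 through a median of 6.14 to 6.72, all-neuron arrays 4.48, 4.61, 4.63, 4.20 and 4.70, and trunk arrays 5.76, 5.84, 6.27 and 5.91. No V1 or trunk array overlapped an all-neuron array. The difference was 1.60 (SE 0.21, adjusted p = 6.08e-05) for V1 against all neurons, -1.42 (SE 0.24, adjusted p = 0.000144) for all neurons against trunk, and 0.17 (adjusted p = 0.573) for V1 against trunk. White cell markers averaged 5.11 to 5.64 in V1, 4.14 to 4.45 in all neurons and 5.48 to 6.17 in trunk, and 3 of 6 were higher in V1 than in all neurons. Their part in the cebpa difference was not tested.

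The cebpz gene was higher in V1 by 0.49 (SE 0.09, adjusted p = 0.00107), with V1 arrays from 6.52 through 6.85 to 7.01 and all-neuron arrays at 6.43, 6.31, 6.39, 6.33 and 6.26. Trunk arrays read 6.94, 6.92, 7.16 and 6.87, and all neurons were lower than trunk by -0.63 (adjusted p = 9.79e-05). V1 and all neurons did not overlap. The acute phase factor gene cebpb was lower than trunk in all neurons (-1.29, SE 0.27, adjusted p = 0.00103) and in V1 (-0.72, SE 0.26, adjusted p = 0.0369). The V1 call was lost without V1 array 1, 3, 4, 5 or 6 or trunk array 1, 2 or 4 (-0.56 to -0.74, adjusted p 0.0512 to 0.125). The genes cebpg and cebp1 were not called.

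Relatives of C/EBP factors followed in part. The circadian bZIP repressor gene nfil3-5 was higher in V1 than in all neurons (0.91, SE 0.20, adjusted p = 0.00406), and nfil3-6 was lower in all neurons than in trunk (-0.72, adjusted p = 0.00788). Mean nfil3-6 levels were 4.56 in V1, 4.04 in all neurons and 4.76 in trunk, all under 5.52. A dimmer nfil3-6 probe set gave -0.01 (adjusted p = 0.916) for all neurons against trunk. The small Maf gene maff was higher in V1 than in both others, by 0.73 (adjusted p = 0.0166) and 0.65 (adjusted p = 0.0245), at levels of 3.40 to 5.02. The second call was lost without V1 array 6 or trunk array 2 or 3 (0.57 to 0.62, adjusted p 0.0528 to 0.0642). The large Maf genes mafaa and mafbb were not called. Outside the bZIP class, maf1a had V1 levels of 8.65, 8.93 and 9.02, all-neuron levels of 9.15, 9.36, 9.39, 9.42 and 9.39, and trunk levels of 8.72, 8.40, 8.31 and 8.52. All neurons were highest with no overlap, by 0.85 over trunk (adjusted p = 1.1e-05), and V1 lay between them, overlapping trunk (-0.48 to all neurons, adjusted p = 0.00238, and 0.37 to trunk, adjusted p = 0.00951). The trunk call was lost with cyclic loess scaling (0.12, adjusted p = 0.431). Its paralog maf1b had V1 arrays from 7.91 through 8.35 to 8.53, all-neuron arrays at 8.27, 8.33, 8.24, 8.37 and 8.21, and trunk arrays at 7.70, 7.64, 7.83 and 7.65. Both neuron groups lay above trunk without overlap, by 0.56 and 0.58 (adjusted p = 0.00157 and 0.00135).

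**Figure D3:**
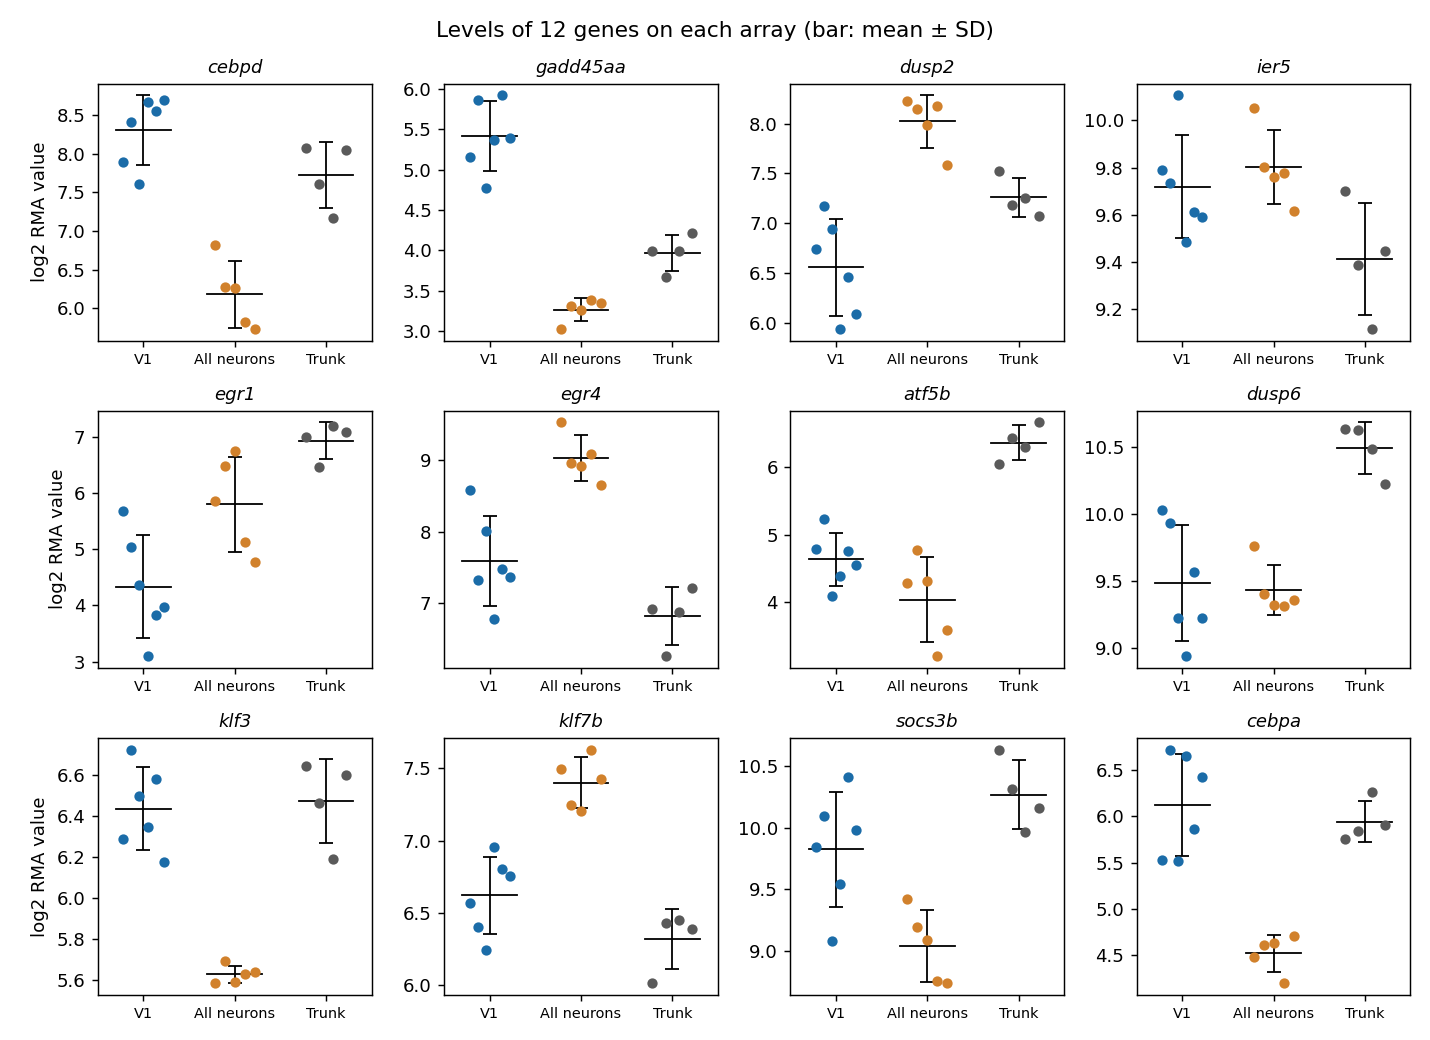
log2 RMA level of 12 genes on each array (points) with group mean ± SD (bars); each panel has its own axis. Every V1 array lies above every all-neuron array for cebpd (4.34-fold), while for dusp2 every V1 array lies below every all-neuron array (2.76-fold).

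Klf genes divided by member. Of 12, 4 were higher in V1 than in all neurons (33.3%, beside 15.2% of all genes) and 2 lower (16.7%, beside 9.02%). In all neurons 4 were lower than trunk (33.3%, beside 25.4%) and 1 higher (8.33%, beside 20.8%). V1 against trunk had 1 higher and 1 lower, 16.7% called beside 43.9% of all genes. The red cell factor gene klf1 read 3.95, 4.87 and 5.64 at the lowest, median and highest V1 arrays. All-neuron arrays read 3.32, 2.92, 3.06, 3.00 and 3.31, and trunk arrays 5.82, 5.45, 4.77 and 5.32. All-neuron arrays lay below both other groups with no overlap. The differences were 1.71 (SE 0.26, adjusted p = 0.000195) for V1 against all neurons and -2.22 (SE 0.29, adjusted p = 1.33e-05) for all neurons against trunk, and -0.51 (adjusted p = 0.164) for V1 against trunk. The gene was singled out after its values were seen, and all 3 group means lie under 5.52. The 6 red cell markers were likewise lower in all neurons than in V1 and in trunk, and their part in the klf1 differences was not tested.

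The flow-responsive vessel lining genes klf2a and klf2b were higher in V1 than in all neurons by 1.101 (SE 0.31, adjusted p = 0.0172) and 0.91 (SE 0.22, adjusted p = 0.00759). Mean klf2a levels were 4.71 in V1, 3.61 in all neurons and 5.32 in trunk, all under 5.52. For klf2b, V1 arrays ran from 5.03 through 5.41 to 6.47, all-neuron arrays read 4.94, 4.33, 4.70, 4.65 and 4.60, and trunk arrays 5.86, 5.60, 4.97 and 5.40. V1 and all neurons did not overlap, and V1 and trunk did. Below trunk, all neurons differed by -1.71 (adjusted p = 0.000685) in klf2a and -0.82 (adjusted p = 0.0141) in klf2b, the second lost without trunk array 1 (-0.68, adjusted p = 0.0537). Vessel markers averaged 7.10 to 8.47 in V1, 4.07 to 4.49 in all neurons and 6.81 to 7.62 in trunk, and 5 of 5 were higher in V1 than in all neurons. Their part in the klf2a and klf2b differences was not tested.

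**Figure D4:**
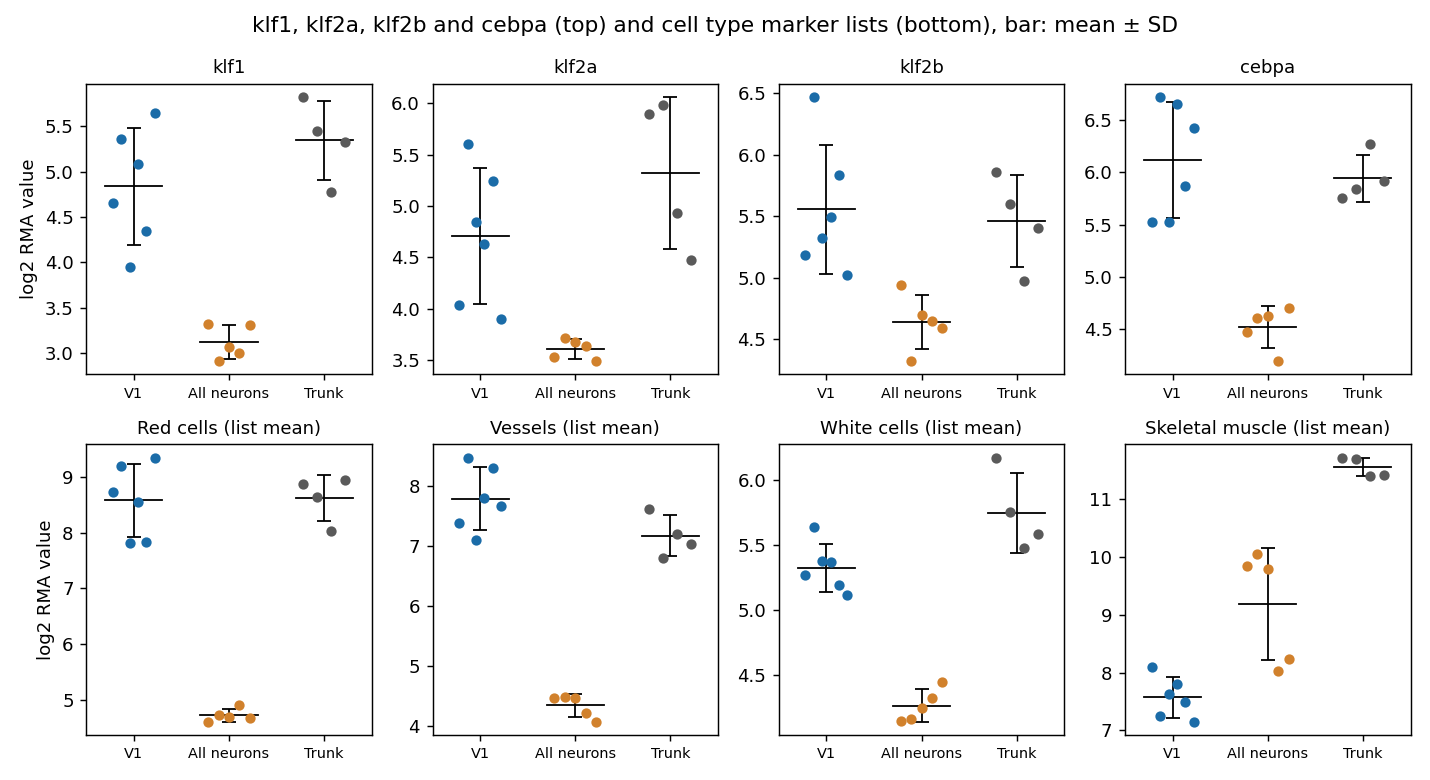
log2 RMA level of klf1, klf2a, klf2b and cebpa (top) and the mean level of marker lists for red cells, vessels, white cells and skeletal muscle (bottom) on each array (points), with group mean ± SD (bars). The red cell, vessel and white cell lists and the 4 genes have their lowest mean in all neurons. The muscle list is lowest in V1, at 7.15 to 8.10. Lists not drawn, for neural crest and pigment, pronephros and skin, also had their lowest group median in all neurons.

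The transcriptional repressor gene klf3 had V1 levels of 6.18, 6.42 and 6.72, all-neuron levels of 5.59, 5.69, 5.59, 5.63 and 5.64, and trunk levels of 6.65, 6.46, 6.19 and 6.60. The all-neuron arrays lay in a narrow band below every other array. V1 was 1.75-fold higher than all neurons (0.81, SE 0.10, adjusted p = 4.23e-05), and all neurons were 1.80-fold lower than trunk (-0.85, SE 0.12, adjusted p = 2.08e-05). The neuronal gene klf7b, whose mouse relative acts in axon growth, went the other way. Its V1 levels were 6.25, 6.66 and 6.96, its all-neuron levels 7.50, 7.25, 7.20, 7.63 and 7.43, and its trunk levels 6.01, 6.43, 6.45 and 6.39. All neurons lay above both others without overlap, by 2.11-fold over trunk (1.08, SE 0.14, adjusted p = 1.78e-05), and V1 was below them by -0.78 (SE 0.13, adjusted p = 0.000474).

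The TGF-beta inducible gene klf11a was higher in V1 than in trunk (0.55, adjusted p = 0.0117), a call lost with cyclic loess scaling (0.26, adjusted p = 0.189). The gene klf4 was lower in V1 than in all neurons (-0.29, adjusted p = 0.0405) and than in trunk (-0.31, adjusted p = 0.0263), at levels of 4.73 to 5.47. The first klf4 call was lost when V1 array 2, 3, 5 or 6 was omitted, or all-neuron array 2, 3, 4 or 5 (-0.26 to -0.30, adjusted p 0.0505 to 0.0976), and the second without V1 array 2 or trunk array 2 (-0.21 to -0.28, adjusted p 0.053 to 0.113) or with cyclic loess scaling (-0.22, adjusted p = 0.0533). The genes klf6a, klf9, klf10, klf11b and klf17 were called nowhere.

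Gadd45 genes encode small adaptors induced by DNA damage and other stress, and gadd45aa had the lowest adjusted p of all 75 members between V1 and all neurons. V1 arrays ran from 4.77 through 5.38 to 5.92, all-neuron arrays read 3.02, 3.31, 3.25, 3.39 and 3.34, and trunk arrays 4.00, 3.67, 3.99 and 4.21. The 3 groups did not overlap at all. V1 was higher than all neurons by 2.15 (SE 0.17, adjusted p = 4.88e-07) and than trunk by 1.45 (SE 0.19, adjusted p = 1.46e-05), and all neurons were lower than trunk by -0.70 (SE 0.19, adjusted p = 0.00767). All group means lay below 5.52, so no fold is given.

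Its paralog gadd45bb was also higher in V1 than in all neurons, 2.34-fold (1.23, SE 0.26, adjusted p = 0.00278). V1 levels ran from 7.59 through 7.82 to 8.71, all-neuron levels were 6.60, 7.09, 6.84, 6.62 and 6.76, and trunk levels 8.65, 7.06, 7.67 and 7.33. V1 and all neurons did not overlap, while trunk array 1 stood well above the other trunk arrays. All neurons against trunk gave -0.89 (adjusted p = 0.0193), lost without trunk array 1 (-0.57, adjusted p = 0.0752). In gadd45ga all neurons were lower than trunk (-0.81, adjusted p = 0.00242), and in gadd45ba V1 was lower than trunk (-0.42, adjusted p = 0.0266), a call lost without trunk array 1 or 2 (-0.33 to -0.41, adjusted p 0.0651 to 0.0975). A dimmer gadd45ba probe set gave 0.08 (adjusted p = 0.541) for V1 against trunk. The gene gadd45ab was not called, and gadd45gip1, of the mitochondrial ribosome, was lower in V1 than in trunk (-0.40, adjusted p = 0.00897). The gadd45gip1 call was lost with the replicate number as a block (adjusted p = 0.0564).

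The ier5 gene, a rapid responder that regulates heat shock factor activity in mammals, was nearly level. V1 arrays read 9.49, 9.67 and 10.11 at the lowest, median and highest, all-neuron arrays 10.05, 9.80, 9.76, 9.78 and 9.62, and trunk arrays 9.70, 9.39, 9.12 and 9.45. The groups overlapped throughout. V1 differed from all neurons by -0.08 (SE 0.12, adjusted p = 0.695) and from trunk by 0.31 (SE 0.13, adjusted p = 0.0719). All neurons were higher than trunk by 0.39 (SE 0.13, adjusted p = 0.0295), a call lost without all-neuron array 1 or trunk array 2 or 3 (0.29 to 0.38, adjusted p 0.0607 to 0.111), and with cyclic loess scaling (0.22, adjusted p = 0.153). The genes ier2a and ier5l were not called.

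The ER protein gene ier3ip1 was lower in V1 than in both others, with V1 arrays from 6.30 through 6.58 to 6.97, all-neuron arrays at 7.10, 7.09, 6.84, 7.29 and 7.06, and trunk arrays at 7.80, 7.83, 7.88 and 7.38. Trunk lay above both without overlap. V1 was 2.15-fold lower than trunk (-1.11, SE 0.14, adjusted p = 8.77e-06). Among the antiproliferative Btg genes, btg2 was lower in V1 than in all neurons (-0.46, adjusted p = 0.0376), a call lost when V1 array 1, 4, 5 or 6 was omitted, or all-neuron array 1, 2 or 3 (-0.38 to -0.46, adjusted p 0.0597 to 0.0999). A dimmer btg2 probe set gave -0.19 (adjusted p = 0.319) there. In btg4, V1 was lower than trunk (-0.35, adjusted p = 0.0182), lost without trunk array 2 or 4 (-0.28 to -0.29, adjusted p 0.0689 to 0.0759), and with cyclic loess scaling (-0.26, adjusted p = 0.0546). Every btg4 group mean was under 5.52. The genes btg1 and btg3 and the mTORC1 inhibitor gene ddit4 were not called.

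Of 10 Dusp genes, V1 was lower than trunk in 5 and higher in 2, beside 20.6% and 23.3% of all genes. All neurons were lower than trunk in 2 and higher in 3, beside 25.4% and 20.8%, and V1 was lower than all neurons in 1 and higher in 1, beside 9.02% and 15.2%. The one lower than all neurons, dusp2, encodes a nuclear phosphatase of MAP kinases. V1 levels ran from 5.94 through 6.60 to 7.17, all-neuron levels were 8.23, 8.15, 7.99, 8.17 and 7.58, and trunk levels 7.53, 7.18, 7.25 and 7.07. Every all-neuron array exceeded every V1 and trunk array, and V1 reached into the trunk range. V1 was 2.76-fold lower than all neurons (-1.46, SE 0.20, adjusted p = 6.97e-05), and all neurons were 1.70-fold higher than trunk (0.76, SE 0.22, adjusted p = 0.0108). V1 was 1.63-fold lower than trunk (-0.70, SE 0.21, adjusted p = 0.0153), lost without trunk array 1 (-0.61, adjusted p = 0.0519).

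The ERK phosphatase gene dusp6, a target of FGF signalling, was lower than trunk in both neuron groups. V1 arrays ran from 8.94 through 9.40 to 10.03, all-neuron arrays read 9.76, 9.41, 9.32, 9.31 and 9.36, and trunk arrays 10.63, 10.62, 10.48 and 10.22. Trunk lay above both others with no overlap, by -1.004 for V1 (SE 0.19, adjusted p = 0.000462) and -1.06 for all neurons (SE 0.19, adjusted p = 0.000329). The ERK phosphatase gene dusp7 took the opposite direction. V1 arrays ran from 7.18 through 7.41 to 7.68, all-neuron arrays read 7.21, 7.16, 7.22, 7.99 and 7.73, and trunk arrays 6.47, 6.41, 6.34 and 6.87. Both neuron groups lay above trunk without overlap, by 0.88 (adjusted p = 0.00043) and 0.94 (adjusted p = 0.000281). A second probe set of each gene had the same direction and call against trunk in both neuron groups, with every group mean under 5.52.

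The small atypical phosphatase gene dusp23b had V1 levels of 4.58, 4.94 and 5.17, all-neuron levels of 5.03, 5.09, 4.97, 5.10 and 4.93, and trunk levels of 5.84, 6.24, 6.00 and 5.99. Trunk stood clear of both, by -1.11 (adjusted p = 6.72e-07) and -0.99 (adjusted p = 2.51e-06). The stress-induced gene dusp1 was lower in V1 than in trunk (-0.69, SE 0.23, adjusted p = 0.0234), with V1 arrays from 9.47 through 9.69 to 9.96, all-neuron arrays at 10.58, 10.65, 10.49, 9.29 and 9.67, and trunk arrays at 10.70, 10.25, 10.30 and 10.41. V1 lay below every trunk array, and all-neuron arrays 1 to 3 stood above arrays 4 and 5. That call was lost without trunk array 1 (-0.60, adjusted p = 0.0737).

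Among the other Dusp genes, dusp4 was higher than trunk in V1 (0.54, adjusted p = 0.0101) and in all neurons (0.65, adjusted p = 0.00315), at levels of 3.27 to 4.47. The gene dusp16 was lower in V1 than in trunk (-0.40, adjusted p = 0.0138), lost without trunk array 2 (-0.29, adjusted p = 0.0633). The ERK-specific dusp5 was higher in V1 than in all neurons (0.52, adjusted p = 0.0326), lost when V1 array 2, 5 or 6 was omitted, or all-neuron array 1, 2 or 3 (0.41 to 0.52, adjusted p 0.0519 to 0.0886). The genes dusp11 and dusp22a were not called.

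Socs genes encode inhibitors of cytokine receptors that STAT factors induce. In socs3b, V1 arrays ran from 9.08 through 9.91 to 10.42, all-neuron arrays read 9.42, 9.19, 9.08, 8.76 and 8.74, and trunk arrays 10.64, 10.32, 9.97 and 10.16. All neurons lay below every trunk array and overlapped V1. The difference was -1.23 (SE 0.23, adjusted p = 0.000367) against trunk, and V1 was 1.73-fold higher than all neurons (0.79, SE 0.21, adjusted p = 0.0116). In socs3a, V1 levels were 9.03, 10.34 and 11.07, all-neuron levels 10.18, 9.98, 9.82, 8.46 and 8.95, and trunk levels 11.26, 10.35, 10.32 and 10.76. All-neuron arrays 4 and 5 were lowest. All neurons were lower than trunk by -1.19 (SE 0.41, adjusted p = 0.0296), lost without all-neuron array 4 or 5 or trunk array 1 or 4 (-0.94 to -1.16, adjusted p 0.0628 to 0.0953).

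The interferon feedback gene socs1a was higher in V1 than in all neurons (0.40, adjusted p = 0.0475) and than in trunk (0.43, adjusted p = 0.0263). The first call was lost without any 1 of the 5 all-neuron arrays or V1 array 1, 2, 5 or 6 (0.30 to 0.44, adjusted p 0.0509 to 0.0998), and the second without V1 array 1 or trunk array 2 or 4 (0.38 to 0.41, adjusted p 0.0531 to 0.072). Both were lost with cyclic loess scaling (0.37 and 0.36, adjusted p = 0.0618 and 0.0598). A dimmer socs1a probe set gave 0.06 (adjusted p = 0.706) against all neurons and 0.04 (adjusted p = 0.797) against trunk.

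The IkB genes, which hold NF-kappaB in the cytoplasm, did not move as 1 block. In nfkbiab, V1 arrays ran from 7.23 through 7.41 to 7.86, all-neuron arrays read 7.22, 6.75, 7.01, 6.90 and 6.70, and trunk arrays 6.95, 7.001, 6.68 and 6.89. Every V1 array lay above every array of both other groups, by 0.56 (SE 0.13, adjusted p = 0.00444) and 0.60 (SE 0.13, adjusted p = 0.00224). Its paralog nfkbiaa was lower than trunk in both, by -0.60 (adjusted p = 0.00169) and -0.78 (adjusted p = 0.000205), with V1 arrays from 5.03 through 5.22 to 5.35, all-neuron arrays at 5.24, 5.06, 5.04, 4.97 and 4.77, and trunk arrays at 6.23, 5.75, 5.44 and 5.77. Trunk lay above every array of the others.

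The gene nfkbib had V1 arrays from 9.01 through 9.12 to 9.41, all-neuron arrays at 9.11, 9.11, 9.14, 9.58 and 9.45, and trunk arrays at 8.82, 8.63, 8.91 and 8.75. Both neuron groups lay above trunk without overlap, by 0.37 (adjusted p = 0.016) and 0.50 (adjusted p = 0.00252). The V1 call was lost without trunk array 2 (0.32, adjusted p = 0.0585) and with cyclic loess scaling (0.10, adjusted p = 0.499). The nuclear IkB gene nfkbiz was lower in all neurons than in trunk (-0.28, adjusted p = 0.0381), lost without all-neuron array 2 or 4 or trunk array 1 or 2 (-0.20 to -0.27, adjusted p 0.0794 to 0.133), and with cyclic loess scaling (-0.23, adjusted p = 0.0611). Every nfkbiz group mean was under 5.52.

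The hormone- and stress-induced kinase gene sgk1 was higher in V1 than in all neurons by 0.39 (SE 0.11, adjusted p = 0.0192). V1 levels were 8.48, 8.69 and 8.89, all-neuron levels 8.13, 8.43, 8.43, 8.16 and 8.31, and trunk levels 8.72, 8.48, 8.23 and 8.70. V1 and all neurons did not overlap. The call was lost without all-neuron array 4 (0.36, adjusted p = 0.0525) and with cyclic loess scaling (0.33, adjusted p = 0.0597).

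**Figure D5:**
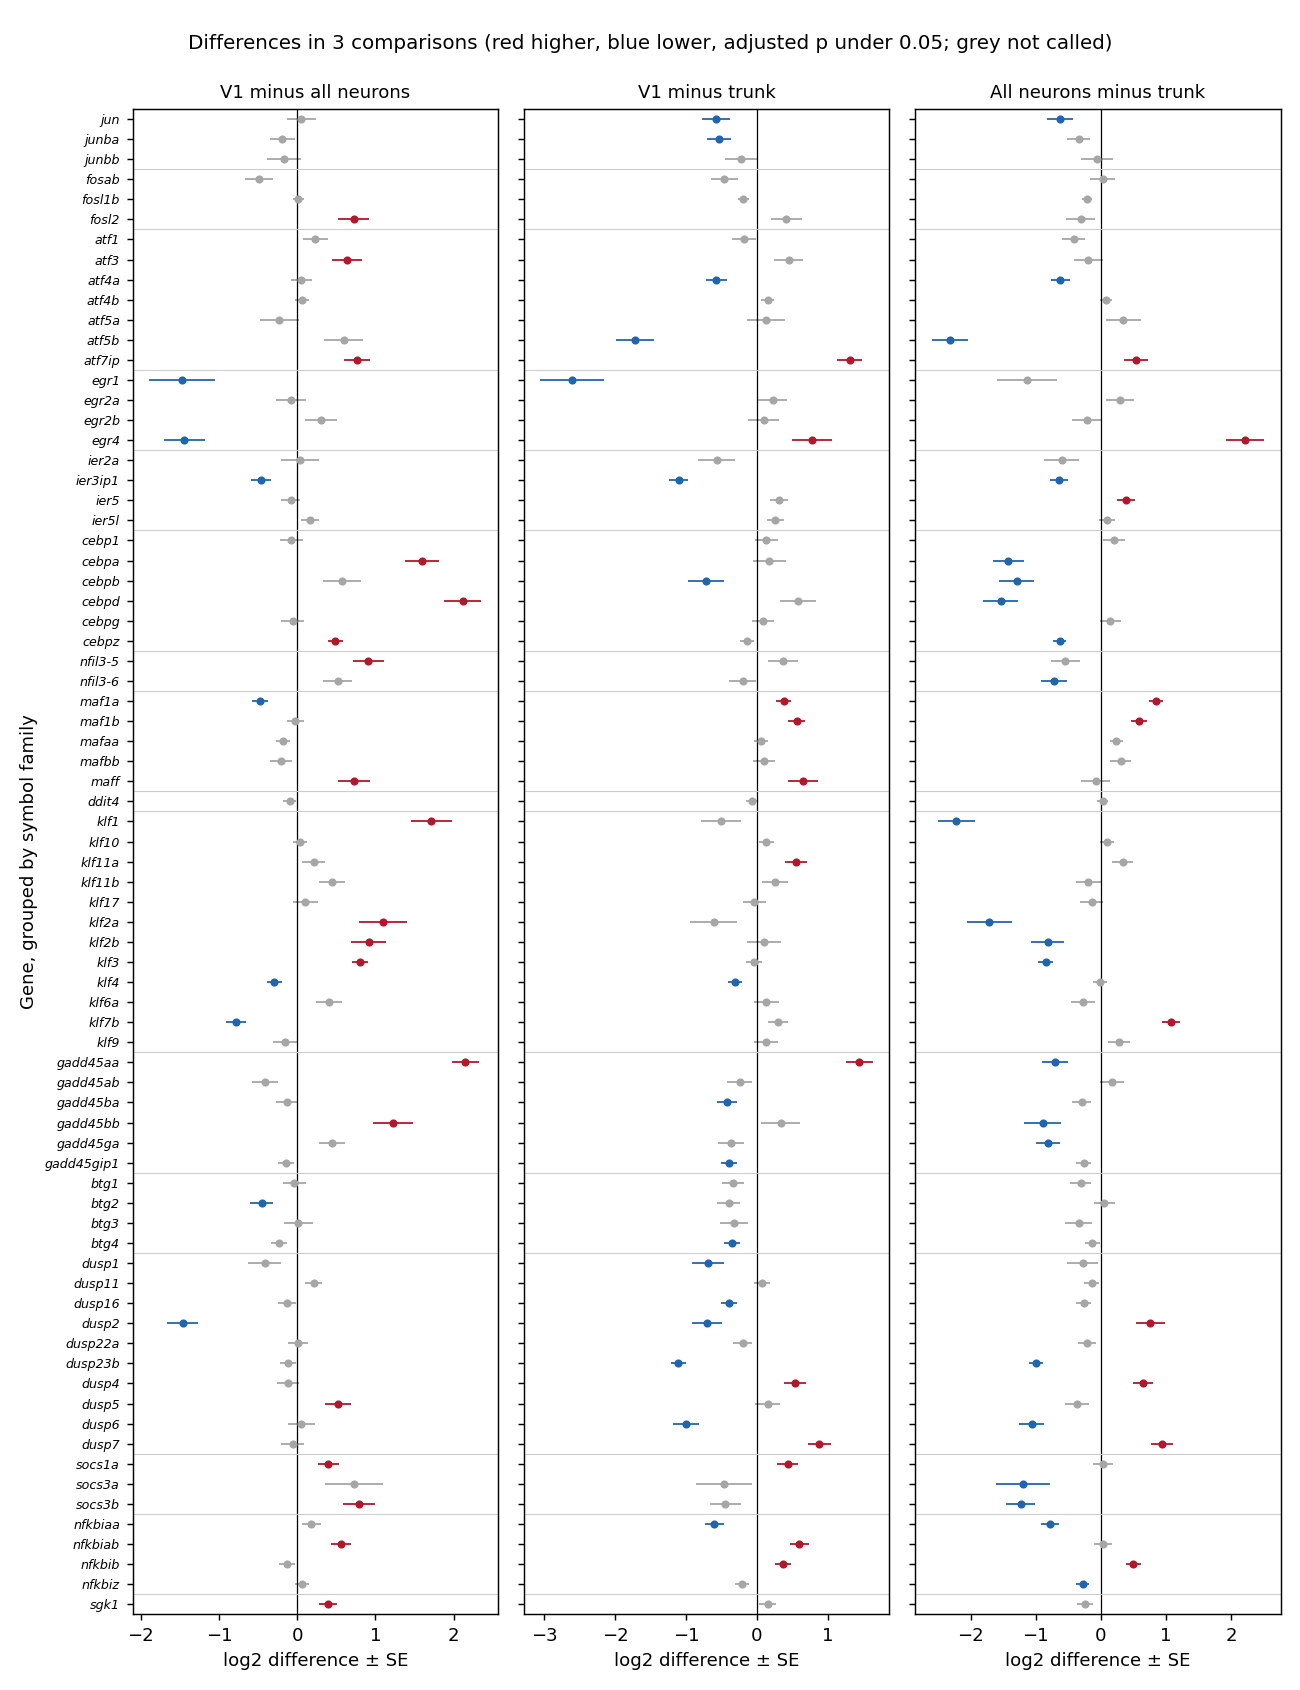
log2 difference ± SE of each of the 75 genes in the 3 comparisons, relative to the RMA scale (red, called higher; blue, called lower; grey, not called). V1 against all neurons has 19 red and 8 blue points, V1 against trunk 12 and 17, and all neurons against trunk 10 and 22.

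Kinases, factors and other responders of the same pathways were read from a list of 112 further genes, of which 68 were measured. Of these, 13 were higher and 9 lower in V1 than in all neurons, 13 and 16 in V1 than in trunk, and 10 and 25 in all neurons than in trunk. Over all genes the higher and lower shares were 15.2% and 9.02%, 23.3% and 20.6%, and 20.8% and 25.4%. The circadian and stress-induced repressor genes bhlhe41 and bhlhe40 were higher in V1 than in all neurons by 2.87 (adjusted p = 8.57e-06) and 2.14 (adjusted p = 1.88e-05). The survival gene mcl1b (1.81) and the EGF-family ligand gene hbegfa (1.21) were higher too. Lower were the activity-induced factor genes nr4a1 (-1.37, adjusted p = 0.000184) and npas4a (-1.33, adjusted p = 0.00885). So were the small heat shock gene hspb1 (-1.36) and the MAP kinase kinase gene map2k1 (-0.97).

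Against trunk, V1 was lower in hspb1 (-3.81, adjusted p = 1.35e-07), the thioredoxin inhibitor gene txnipb (-2.24), myca (-1.60) and nr4a1 (-1.26). It was higher in id4 (1.78), bhlhe41 (1.54), npas4a (1.07) and the FGF feedback gene spry4 (1.03). All neurons were lower than trunk in hspb1 (-2.46), bhlhe40 (-2.21), myca (-1.73) and the asparagine synthetase gene asns (-1.72), an Atf4 target. They were higher in id4 (2.45), npas4a (2.40, adjusted p = 6.6e-05), the p38 kinase gene mapk11 (1.08) and map2k1 (1.03).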

How the data were processed

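Per the labels' protocols, RNA went onto Affymetrix arrays after 2 rounds of amplification. The authors used Expression Console and RMA, per the submitters' processing notes, and the deposited levels are on the log2 scale, read from their range. Versions and genome build: not given in the sources used here.

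Of 15617 probe sets on 15 arrays, 115 controls were left out and 15502 tested. Of the tested, 10795 had 1 gene symbol. Gene IDs of 74 of the 75 members matched the RefSeq gene table, with symbols unchanged. A single limma 3.58.1 fit of group means used every array (lmFit, eBayes; R 4.3.3; 12 residual degrees of freedom). Two-sided moderated tests were adjusted by Benjamini-Hochberg within a comparison over the tested probe sets, with threshold 0.05. The steps were tested on simulated data. Figures used matplotlib 3.10.9.

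Members, gene lists and tests were chosen with earlier results of these data known. Values on every all-neuron and trunk array, and the lowest, median and highest V1 value, were given for cebpd, gadd45aa, dusp2, ier5 and, per comparison, the 8 higher and 8 lower called members with the largest differences, no overlap and a higher group mean of at least 5.52; others by difference. From the upstream list, up to 4 genes per comparison and direction were named. Values of jun, fosab, atf3 and klf1 were added after they were seen. Promoter and protein sequences were not analysed here.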

Additional observations from a re-analysis of the deposited data

Results flagged for a closer look

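In 10 of 225 sets of a member's levels in 1 group, the highest or lowest array lay far from the rest by Dixon's test; chance gives about 1 in 20 such sets. In V1, atf4b read 9.97 on array 3, btg4 4.50 on array 4 and cebp1 5.77 on array 2. In all neurons, array 1 stood apart for dusp6 (9.76), klf4 (4.90) and maf1a (9.15). In trunk, array 1 stood apart for klf11a (9.84) and klf7b (6.01), array 3 for klf9 (6.71) and array 4 for ier3ip1 (7.38).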

How the results depend on the processing

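With equal ribosomal protein means, V1 against all neurons had 5 members higher and 46 lower (member median -0.51, all probe sets -0.57). V1 against trunk had 6 higher, and all neurons against trunk 28 higher and 9 lower (member median 0.25, all probe sets 0.44). Signs then turned in cebpz (-0.071), dusp5 (-0.039), sgk1 (-0.17) and socs1a (-0.16) for V1 against all neurons and in nfkbiz (0.19) for all neurons against trunk. With the median of a gene's probe sets, atf7ip gave -0.10 for V1 against all neurons and 0.02 (adjusted p = 0.858) for V1 against trunk. Its call for all neurons against trunk was lost there as well. Cyclic loess scaling left 7 members higher in V1 than in trunk, and only trunk arrays 3 and 4, a smaller group, left 8 lower. Deviations of same-numbered arrays from their group means correlated at r from -0.135 to 0.356, over 0.1 in 4 of 13 pairs. The highest were all-neuron array 2 with V1 array 2 (0.356) and all-neuron array 1 with trunk array 1 (0.302). Differently numbered arrays reached 0.276. Whether same-numbered arrays were prepared together cannot be decided from these values, since the labels name no batch. With the replicate number as a block, 11 members were lower in V1 than in trunk. Calls lost there were cebpb, dusp1, dusp2, dusp16, gadd45gip1, klf4, maf1a and maff. The block also lost btg2, dusp5, klf4 and socs1a for V1 against all neurons, and atf7ip and nfkbiz for all neurons against trunk. A fit of only the groups compared lost btg4, egr4, maff and socs1a for V1 against trunk. It lost dusp5 and socs1a for V1 against all neurons, and nfkbiz for all neurons against trunk. Leaving out 1 array at a time gave 16 to 21 higher and 5 to 8 lower for V1 against all neurons (median 0.03 to 0.08), 8 to 14 and 10 to 20 for V1 against trunk (median -0.08 to 0.02), and 8 to 10 and 19 to 26 for all neurons against trunk (median -0.26 to -0.18). The next counts leave out the runs of only trunk arrays 1 and 2, only trunk arrays 3 and 4 and only all-neuron arrays 4 and 5. A fit of only the probe sets with a group mean of at least 5.52 counted only for the genes it held. Of the 19 higher and 8 lower members in V1 against all neurons, 5 and 5 kept their call in all runs counted. For V1 against trunk 3 of 12 and 7 of 17 did, and for all neurons against trunk 8 of 10 and 9 of 22. Shares of all genes called were not computed for any alternative run, so the member counts in them are no result about the members. The causes were not tested.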
